A study of Mus musculus with 8 samples.

Results

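The 9 genes described here encode proteins of osteoblasts and of mineralized bone matrix, and their mRNA levels were compared between mouse tibialis anterior (TA) muscles electroporated with *Uba1* siRNAs and with control non-targeting (NT) siRNAs. They were taken by symbol from a table of 41709 genes. *Ibsp*, *Bglap*, *Bglap2* and *Spp1* were selected on these same values, because their mRNA was higher with *Uba1* siRNAs, and are therefore described with no test. *Alpl*, *Sp7*, *Runx2*, *Dmp1* and *Phex* complete the group and were tested.

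Osteoblasts are the cells that build bone. The transcription factors RUNX2 and SP7 direct their differentiation, after which the cells secrete collagen I together with matrix proteins that bind calcium and hydroxyapatite, and alkaline phosphatase removes the pyrophosphate that blocks crystal growth. Healthy muscle does not mineralize, and bone forming within muscle (heterotopic ossification) is known mainly as a response to injury or as an inherited disorder of BMP signaling.

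The muscles came from 4 male C57BL/6J mice aged 3 months and were collected 7 days after electroporation of siRNA pools (ON-TARGETplus SMARTpools). In each mouse, the muscle with *Uba1* siRNAs and the one with NT siRNAs belong to opposite legs and share a replicate number, and they are called a pair. The labels mark every NT muscle with R and every *Uba1* muscle with L, and the effect of the side cannot be told apart from that of the siRNA. All muscles received hyaluronidase and electroporation, and none was left untreated. The tags of 3 *Uba1* muscles name other UBA genes, whereas their titles, descriptions and the paper name UBA1. UBA1 is the main E1 enzyme that activates ubiquitin. The knockdown acts on the muscle cells and other cells that took up siRNAs, and it was partial: *Uba1* mRNA was at 60.6, 59.0, 63.6 and 59.1 TPM (mRNA level scaled by transcript length and library total) in NT replicates 1 to 4 and at 18.1, 6.77, 15.8 and 23.1 TPM in *Uba1* replicates 1 to 4, a fall of 70.2%, 88.5%, 75.2% and 60.9% in pairs 1 to 4.

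The muscles were deeply sequenced, at roughly 46900000 to 48800000 reads each as judged from the size of 1 read on the TPM scale, but most members were rare. Of the 9 genes, 5 passed the filter on low values, which kept genes with 1 TPM in 4 or more muscles (*Ibsp*, *Bglap*, *Bglap2*, *Spp1* and *Alpl*), and *Sp7*, *Runx2*, *Dmp1* and *Phex* stayed under it. *Bglap* passed with 3 *Uba1* muscles and 1 NT muscle, so its passing depended on the group in which it was higher. The muscle label held, since 12 markers of skeletal muscle fibres summed to 132794 to 182350 TPM in every muscle, whereas the 9 members together took 17.9 to 80.3 TPM. In such bulk samples, fewer cells of a type and less RNA per cell cannot be told apart.

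*Sp7* and *Runx2*, the transcription factors of the osteoblast lineage, were both higher with *Uba1* siRNAs, with no overlap between the groups, as were 4.68% of all genes that stayed under the filter but averaged 0.1 TPM or more. *Sp7* (osterix) lies on the minus strand at chr15:102265038-102279370 of GRCm39 and encodes a zinc finger factor without which osteoblasts do not form. Its mRNA was at 0.355, 0.190, 0.275 and 0.101 TPM in NT replicates 1 to 4 and at 0.678, 0.979, 0.935 and 0.871 TPM in *Uba1* replicates 1 to 4. Every *Uba1* muscle was thus above every NT muscle, and NT replicate 1 and *Uba1* replicate 1 were the closest to each other. The mean was 0.230 ± 0.109 TPM with NT siRNAs and 0.866 ± 0.133 TPM with *Uba1* siRNAs (SD, n = 4 each), a ratio of 3.76. The exact permutation test of log2(TPM + 1) gave p = 0.0286 (two-sided), the smallest p that 4 muscles against 4 allow. With all genes in the fit and no filter, the log2 difference of *Sp7* was 0.60 (standard error 0.0793) and its adjusted p from limma was 0.112. These levels rest on about 6 to 58 reads per muscle.

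*Runx2*, the runt-domain factor that acts upstream of *Sp7*, lies on the minus strand at chr17:44806874-45125684. It was at 0.567, 0.343, 0.476 and 0.491 TPM in NT replicates 1 to 4 and at 0.652, 0.782, 0.805 and 1.24 TPM in *Uba1* replicates 1 to 4. The groups did not overlap, but the gap between NT replicate 1 and *Uba1* replicate 1 was small beside the range of either group. The mean rose from 0.469 ± 0.0929 to 0.871 ± 0.258 TPM (SD, n = 4 each; exact permutation test, two-sided, p = 0.0286), a ratio of 1.85. Its adjusted p with no filter was 0.253 (limma). The call was lost with median-ratio scaling (exact permutation p = 0.0571) and with quantile normalization (p = 0.0857). The exact permutation p was 0.0571 without any 1 NT muscle and 0.0286 without any 1 *Uba1* muscle. With 1 muscle left out the groups still did not overlap, and this test then has few divisions. These p-values thus cannot tell whether the result rested more on NT or on *Uba1* muscles. The log2 difference was 0.30 to 0.37 without 1 NT muscle and 0.25 to 0.40 without 1 *Uba1* muscle. With median-ratio scaling and the replicate block, which compares the legs of each mouse, the unadjusted limma p of *Runx2* was 0.0343.

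For comparison, the genes under the filter that averaged 0.1 TPM or more numbered 4184, of which 0.884% were lower without overlap. A ratio of means as high as that of *Sp7* occurred in 1.67% of these genes and one as high as that of *Runx2* in 9.56%. Among the 11530 genes tested, 10.6% were higher and 1.01% lower without overlap, and 81.8% had a log2 difference above 0. That imbalance depended on the scaling, since the median log2 difference of all genes tested was 0.11 as deposited and 0.0016 with median-ratio scaling. With median-ratio scaling, 5842 of the 11530 genes were above 0, and with quantile normalization 6300 were. By limma at an adjusted p of 0.05, 0.026% of the genes tested differed in either direction. *Alpl*, the member both tested and not picked for its rise, did not. *Uba1* itself, the target of the siRNAs, had an adjusted p of 0.0527 (limma), and of 0.0278 with the replicate block. A gene that missed this threshold therefore cannot be taken as unchanged. At an unadjusted p of 0.05, 16% of the genes tested were higher and 1.98% lower.

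**Figure D1:**
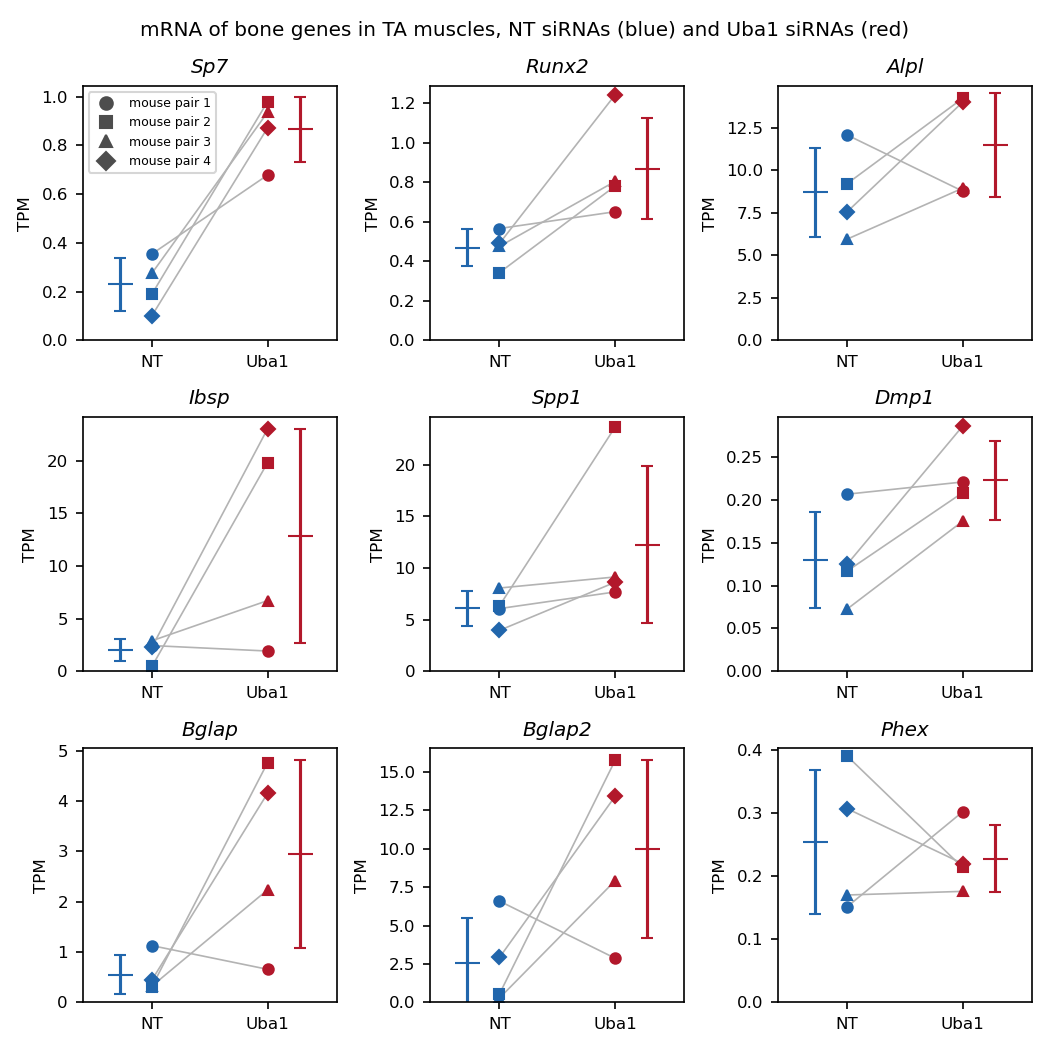
TPM of the 9 genes (y axis, linear, from 0) in muscles with NT siRNAs (blue) and *Uba1* siRNAs (red), where each symbol is 1 muscle, grey lines join the legs of a mouse, and horizontal bars with whiskers give mean and SD (n = 4, the lower whisker of *Bglap2* is clipped at 0). *Sp7* and *Runx2* show separate groups, *Ibsp*, *Bglap* and *Bglap2* are high in *Uba1* replicates 2 and 4, and *Phex* overlaps throughout.

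*Alpl* encodes tissue-nonspecific alkaline phosphatase, the enzyme that hydrolyzes pyrophosphate at the surface of osteoblasts, although endothelial and other cells also express it. The gene lies on the minus strand at chr4:137469039-137524102. Its mRNA was at 12.1, 9.21, 5.95 and 7.55 TPM in NT replicates 1 to 4 and at 8.77, 14.2, 8.94 and 14.0 TPM in *Uba1* replicates 1 to 4. The groups overlapped, and pair 1 went the opposite way from the other 3 pairs. The log2 difference was 0.37 (standard error 0.219, adjusted p = 0.373 from limma; exact permutation test, two-sided, p = 0.2). A difference was thus not detected. *Alpl* had about 463 to 1156 reads per muscle, so counting error was small beside the spread between muscles.

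*Ibsp*, *Spp1* and *Dmp1* encode acidic, integrin-binding glycoproteins of mineralized matrix (bone sialoprotein, osteopontin and dentin matrix protein 1) that belong to a family with *Dspp* and *Mepe*. The 5 genes follow each other on the plus strand of chromosome 5 in the order *Dspp*, *Dmp1*, *Ibsp*, *Mepe* and *Spp1*, within 270.658 kb of GRCm39. *Dspp*, which dentin-forming cells express, and *Mepe*, an osteocyte gene, were at 0 TPM in all 8 muscles, so the neighbors did not share a level.

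*Ibsp* (chr5:104447037-104459338) had the highest ratio of means of the 9 genes over all 8 muscles, although without pair 1 the ratios of *Bglap* (10.3) and *Bglap2* (9.87) exceeded its own. It was at 2.45, 0.468, 2.91 and 2.30 TPM in NT replicates 1 to 4 and at 1.93, 19.8, 6.72 and 23.0 TPM in *Uba1* replicates 1 to 4. *Uba1* replicates 2 and 4 stood far above all other muscles, replicate 3 was intermediate, and replicate 1 lay within the NT range. The mean was 2.03 ± 1.07 TPM with NT siRNAs and 12.9 ± 10.1 TPM with *Uba1* siRNAs (SD, n = 4 each), a ratio of 6.33 and a log2 difference of 1.86. Without pair 1 the ratio was 8.72, and without pair 2 it was 4.13.

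*Spp1* (chr5:104582165-104589235) is also made by activated macrophages and injured muscle, and so is less particular to bone. It was at 6.08, 6.35, 8.07 and 3.97 TPM in NT replicates 1 to 4 and at 7.69, 23.6, 9.14 and 8.63 TPM in *Uba1* replicates 1 to 4. The *Uba1* muscle had more *Spp1* mRNA in each of the 4 pairs, but the groups overlapped and a single muscle, *Uba1* replicate 2, carried much of the difference. The ratio of means was 2.01 with all muscles and 1.39 without that muscle, and the log2 difference was 0.79 and 0.44, respectively. As *Spp1* is also a macrophage gene, macrophage markers are given beside it. The 15 markers summed to 254, 309, 554 and 179 TPM in NT replicates 1 to 4 and to 412, 156, 551 and 192 TPM in *Uba1* replicates 1 to 4, so that their order in the NT muscles was that of *Spp1*, while *Uba1* replicate 2, with the most *Spp1*, had the lowest sum of all. Their part in the level of *Spp1* was not tested.

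*Dmp1*, which osteocytes express most strongly, lies at chr5:104345340-104361974 and was close to the limit of detection, at about 3 to 14 reads per muscle. It was at 0.206, 0.117, 0.0725 and 0.125 TPM in NT replicates 1 to 4 and at 0.221, 0.208, 0.175 and 0.286 TPM in *Uba1* replicates 1 to 4. The *Uba1* muscle was the higher in 4 of 4 pairs, while the groups overlapped through NT replicate 1 (log2 difference 0.11; exact permutation test, two-sided, p = 0.0571). With the replicate block, the unadjusted limma p of *Dmp1* was 0.0228 and its adjusted p was 0.248, and with the block and median-ratio scaling the unadjusted p was 0.0575. The exact permutation p was 0.0286 without NT replicate 1, but 0.114, 0.143 and 0.114 without NT replicates 2, 3 and 4, respectively. It was 0.114 with median-ratio scaling and 0.171 with quantile normalization.

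Osteocalcin, a small protein that binds calcium through γ-carboxylated glutamate (Gla) residues, is encoded by near-identical neighbors. *Bglap3*, *Bglap2* and *Bglap* lie within 15.849 kb on the minus strand of chromosome 3. Their coding sequences have 288 bases each, of which *Bglap* and *Bglap2* share 284 (98.61%), and 80.33% of the 50-base stretches in the coding sequence of *Bglap* also occur in that of *Bglap2*. The first 120 coding bases are shown here to make clear how little separates them (GENCODE annotation of GRCm39, 5′ to 3′ along the transcript, capitals mark bases that differ from *Bglap*):
Bglap: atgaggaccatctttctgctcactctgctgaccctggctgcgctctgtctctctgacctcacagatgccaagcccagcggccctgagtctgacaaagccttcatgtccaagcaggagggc
Bglap2: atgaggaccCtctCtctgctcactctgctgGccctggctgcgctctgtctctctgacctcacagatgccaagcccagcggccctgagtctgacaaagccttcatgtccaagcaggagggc
Bglap3: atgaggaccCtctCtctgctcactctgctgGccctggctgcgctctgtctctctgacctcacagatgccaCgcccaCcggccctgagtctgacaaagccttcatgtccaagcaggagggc
In this stretch 3 bases distinguish *Bglap2* from *Bglap* and 5 distinguish *Bglap3*. How the authors counted reads that match more than 1 gene is not given in the sources used here, so the division of reads between *Bglap* and *Bglap2* is uncertain.

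*Bglap* (chr3:88290808-88291771) was at 1.13, 0.313, 0.324 and 0.446 TPM in NT replicates 1 to 4 and at 0.658, 4.76, 2.24 and 4.15 TPM in *Uba1* replicates 1 to 4. *Bglap2* (chr3:88285043-88286060) was at 6.60, 0.548, 0.284 and 2.93 TPM in NT replicates 1 to 4 and at 2.88, 15.8, 7.92 and 13.4 TPM in *Uba1* replicates 1 to 4. In both genes, *Uba1* replicates 2, 3 and 4 exceeded every NT muscle, and the NT muscle with the highest value was replicate 1. The ratio of means was 5.34 for *Bglap* and 3.86 for *Bglap2*, and the log2 difference was 1.22 and 1.78. Without pair 1, these ratios were 10.3 and 9.87, the NT means then being 0.361 and 1.25 TPM. Without pair 2 they were 3.71 and 2.47, without pair 3 they were 5.07 and 3.18, and without pair 4 they were 4.33 and 3.57. In the NT muscles the genes rested on few reads (about 3 to 11 for *Bglap* and from 2 upward for *Bglap2*), so pairwise ratios are not given. *Bglap3*, which is known mainly from tissues other than bone, was at 0 TPM in 7 muscles and at 0.0263 TPM in *Uba1* replicate 3.

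*Phex*, an endopeptidase of osteoblasts and osteocytes that keeps phosphate in the body, was the only member whose mean was not higher with *Uba1* siRNAs. It was at 0.151, 0.390, 0.170 and 0.307 TPM in NT replicates 1 to 4 and at 0.302, 0.213, 0.176 and 0.220 TPM in *Uba1* replicates 1 to 4. The *Uba1* muscles lay within the NT range, and 2 of the 4 pairs were higher (log2 difference -0.028; exact permutation test, two-sided, p = 0.714).

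In the order of their mean TPM, which is scaled by length, the NT muscles had *Alpl* at 8.70 ± 2.62, *Spp1* at 6.12 ± 1.68, *Bglap2* at 2.59 ± 2.92, *Ibsp* at 2.03 ± 1.07 and *Bglap* at 0.553 ± 0.388 TPM (SD, n = 4 each), followed by *Runx2*, *Phex*, *Sp7* and *Dmp1*, all under 0.5 TPM. The neighbors *Alpl* and *Spp1*, and *Bglap2* and *Ibsp*, were closer than the larger of their SDs. In the *Uba1* muscles, *Ibsp* (12.9 ± 10.1), *Spp1* (12.3 ± 7.60), *Alpl* (11.5 ± 3.04) and *Bglap2* (9.99 ± 5.77 TPM) differed by less than the smallest of their SDs, *Bglap* followed at 2.95 ± 1.87 TPM, and *Runx2* and *Sp7* were level at 0.871 ± 0.258 and 0.866 ± 0.133 TPM. All of these levels were low beside muscle transcripts: the highest member in NT muscles, *Alpl*, was at 0.0228% of the mean of *Acta1*, skeletal muscle actin.

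The pairs differed from each other. In pair 1, 5 of the 9 genes were higher in the *Uba1* muscle (*Spp1*, *Sp7*, *Runx2*, *Dmp1* and *Phex*), whereas *Ibsp*, *Bglap*, *Bglap2* and *Alpl* were lower. Pair 2 had 8 of 9 genes higher, pair 3 all 9 and pair 4 again 8 of 9, with *Phex* the exception in pairs 2 and 4. As *Ibsp*, *Bglap*, *Bglap2* and *Spp1* were picked for their rise, these counts were partly set by the selection. Of the members not picked, all but *Alpl* were higher in pair 1, all but *Phex* in pairs 2 and 4, and all in pair 3. The genes tested, given next, leave out *Sp7*, *Runx2*, *Dmp1* and *Phex*. For comparison, 83.3%, 56.1%, 81.8% and 61.8% of all genes tested were higher in pairs 1 to 4, so pair 1, with the fewest members higher, had the largest share of all genes higher. The fall of *Uba1* was deepest in pair 2 and shallowest in pair 4, the pairs in which *Ibsp* differed most. *Sp7*, *Runx2* and *Dmp1* were higher in 4 of 4 pairs, as were 16% of the genes under the filter that averaged 0.1 TPM or more. *Spp1*, which passed the filter but was picked for its rise, was also higher in 4 of 4 pairs, as were 32.2% of the genes tested.

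**Figure D2:**
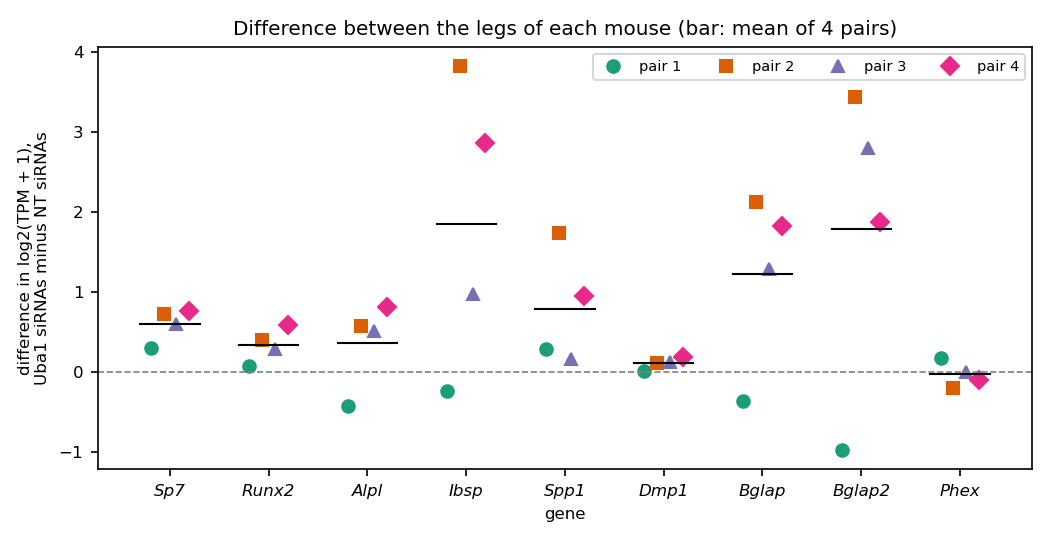
Difference in log2(TPM + 1) between the *Uba1* and NT muscle of each mouse (y axis) for the 9 genes (x axis), with 1 symbol per pair and a bar at the mean of 4 pairs. Pair 1 lies below 0 for *Ibsp*, *Bglap*, *Bglap2* and *Alpl*, whereas *Sp7*, *Runx2*, *Spp1* and *Dmp1* are above 0 in all 4 pairs.

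The promoters of *Ibsp*, *Bglap* and *Spp1*, which were all highest or second highest in *Uba1* replicate 2, are shown with the core RUNX motif in capitals where present. The windows are the 250 bases upstream of the first listed start site, 5′ to 3′ along the gene, from RefSeq with the build GRCm38.p6, which differs from the build of the gene positions above. That of *Ibsp* is at chr5:104299037-104299286 (plus strand), that of *Bglap* at chr3:88384467-88384716 (minus strand) and that of *Spp1* at chr5:104434861-104435110 (plus strand):
Ibsp: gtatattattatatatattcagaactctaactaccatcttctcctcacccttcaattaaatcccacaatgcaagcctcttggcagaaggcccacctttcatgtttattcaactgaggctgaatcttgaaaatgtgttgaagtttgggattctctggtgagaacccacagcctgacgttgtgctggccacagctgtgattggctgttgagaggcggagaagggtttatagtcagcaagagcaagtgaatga
Bglap: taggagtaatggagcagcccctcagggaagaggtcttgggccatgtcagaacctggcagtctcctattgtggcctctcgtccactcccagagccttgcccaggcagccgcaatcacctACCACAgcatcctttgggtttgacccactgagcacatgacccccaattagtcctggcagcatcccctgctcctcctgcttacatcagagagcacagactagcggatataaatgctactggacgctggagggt
Spp1: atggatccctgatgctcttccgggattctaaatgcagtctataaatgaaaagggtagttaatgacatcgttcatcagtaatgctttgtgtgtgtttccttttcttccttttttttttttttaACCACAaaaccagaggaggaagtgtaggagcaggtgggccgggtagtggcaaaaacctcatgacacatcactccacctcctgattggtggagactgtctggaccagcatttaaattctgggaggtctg
The motif ACCACA was searched on both strands (as TGTGGT on the other). It starts 132 bases before the start site of *Bglap* and 128 before that of *Spp1*, and these letters do not occur in the window of *Ibsp*. Windows were found for 7 members, all but *Bglap2* and *Sp7*, some with 2 start sites. Of their 10 windows, 4 held the motif (1 each of *Bglap*, *Spp1*, *Runx2* and *Dmp1*), whereas 14% of all 32851 windows held it. A match is a description of the letters and not of a bound site.

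Among the genes whose pattern over the 8 muscles was most like that of *Ibsp* were *Mmp13*, *Tbc1d4*, *Coro6* and *Adarb1*. Likeness was measured as the mean absolute difference between the standardized log2(TPM + 1) values of both genes, and was 0.187, 0.203, 0.227 and 0.228 SD for these genes, against a median of 1.07 SD over all 11529 other genes tested. *Mmp13*, a collagenase of osteoblasts and hypertrophic chondrocytes, was at 8.52, 1.40, 5.85 and 4.12 TPM in NT replicates 1 to 4 and at 9.13, 59.9, 19.5 and 58.1 TPM in *Uba1* replicates 1 to 4. The other 3 varied much less. *Tbc1d4*, a regulator of glucose transporter traffic, was between 2.56 and 3.80 TPM in NT muscles and between 3.43 and 6.49 TPM in *Uba1* muscles. *Adarb1*, an RNA editing enzyme, was between 3.36 and 3.91 TPM and between 3.57 and 5.03 TPM, respectively. *Coro6*, a coronin, was between 104 and 109 TPM in NT muscles and between 105 and 132 TPM in *Uba1* muscles. Among the members, *Bglap* was the nearest to *Ibsp* at 0.269 SD (place 11 of 11529 when set among the genes tested), followed by *Runx2* at 0.35, *Bglap2* at 0.423, *Sp7* at 0.517, *Spp1* at 0.615, *Alpl* at 0.650 and *Dmp1* at 0.675 SD. *Phex* was the farthest at 1.44 SD. All of these genes were measured in the same 8 libraries, and the distances are descriptions with no test. *Ibsp*, *Bglap*, *Bglap2* and *Spp1* were picked for a rise in these libraries, so their likeness, and the place of *Bglap*, were partly set by the selection.

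**Figure D3:**
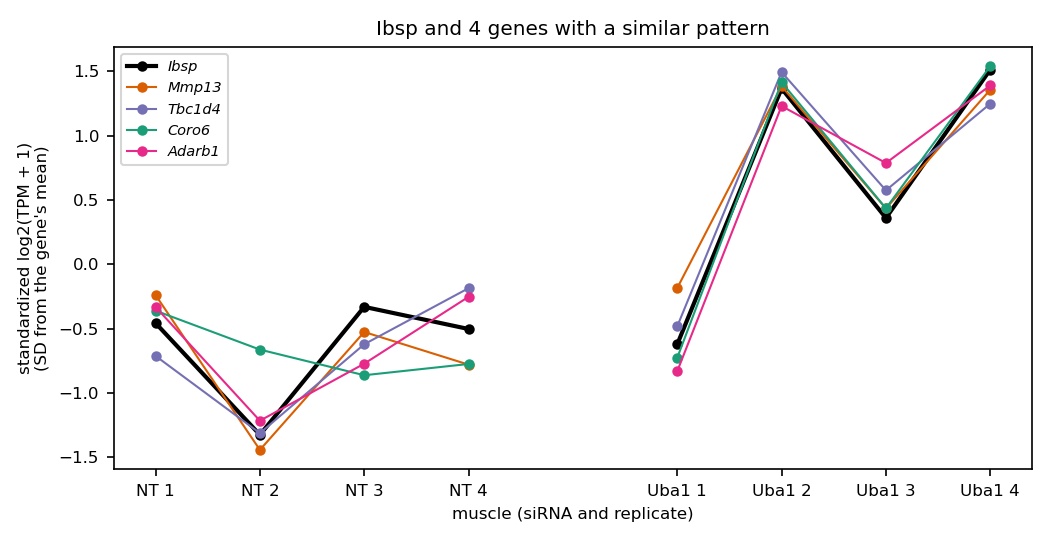
Standardized log2(TPM + 1), in SD from each gene's mean (y axis), over the 8 muscles (x axis) for *Ibsp* (black) and 4 of the genes most like it, each point being 1 muscle. All 5 genes are highest in *Uba1* replicates 2 and 4, intermediate in *Uba1* replicate 3, and low in *Uba1* replicate 1 and the NT muscles.

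Among other genes of the osteoblast lineage, 19 listed genes are no members and 12 of these were tested. Of the 12, 11 had a log2 difference above 0, against 81.8% of all genes tested. At an unadjusted p of 0.05 by limma, 6 were higher, against 16%, none was lower, and none passed the adjusted p. The 6 include *Cdh11*, *Omd* and *Pth1r*, which passed the filter mainly or wholly through the *Uba1* muscles, so part of this count was set by the filter. The median log2 difference of the 12 was 0.31, against 0.11 for all genes tested, and with median-ratio scaling it was 0.21 against 0.0016. The most abundant were the bone and connective tissue genes *Sparc* (290 ± 68.4 and 340 ± 73.0 TPM with NT and *Uba1* siRNAs), *Col1a1* (220 ± 94.2 and 312 ± 82.7 TPM) and *Col1a2* (114 ± 38.4 and 162 ± 33.5 TPM; SD, n = 4 each), whose groups overlapped although the *Uba1* muscle was the higher in 4 of 4 pairs.

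Among the genes tested of that list, *Cdh11* and *Omd* had the largest log2 differences. *Cdh11*, a cadherin of osteoblasts and other mesenchymal cells, was at 1.58, 0.471, 0.841 and 0.542 TPM in NT replicates 1 to 4 and at 2.01, 3.19, 1.71 and 2.76 TPM in *Uba1* replicates 1 to 4 (log2 difference 0.89). *Omd* (osteomodulin), a keratan sulfate proteoglycan of bone, was at 0.987, 0.517, 0.475 and 0.245 TPM in NT replicates 1 to 4 and at 1.02, 1.88, 1.54 and 2.49 TPM in *Uba1* replicates 1 to 4 (log2 difference 0.80). *Omd* passed the filter through the *Uba1* muscles alone and *Cdh11* through these and 1 NT muscle, so that, as for *Bglap*, passing depended on the group with the higher level. Neither gene overlapped between the groups, and in both, NT replicate 1 was the highest NT muscle. The same held for *Pth1r*, the receptor of parathyroid hormone (0.841 ± 0.277 and 1.58 ± 0.281 TPM), and *Tnfsf11*, which encodes RANKL (0.103 ± 0.0556 and 0.318 ± 0.107 TPM; SD, n = 4 each), except that the highest NT muscle for *Tnfsf11* was replicate 3. *Tnfsf11* stayed under the filter, at about 1 to 15 reads per muscle. For comparison, 10.6% of genes tested were higher without overlap, as were 4.68% of genes under the filter that averaged 0.1 TPM or more. *Dlx5*, a homeobox factor of the osteoblast lineage that also stayed under the filter, had a higher ratio of means (4.21) than *Cdh11*, *Omd*, *Pth1r* and *Tnfsf11*. It was at 0.420, 0.0285, 0.118 and 0.0609 TPM in NT replicates 1 to 4 and at 0.180, 0.904, 0.427 and 1.13 TPM in *Uba1* replicates 1 to 4. These levels rest on about 1 to 39 reads per muscle, so the ratio of *Dlx5* is uncertain. Its groups overlapped, and NT replicate 1 was above *Uba1* replicate 1. *Pth1r*, *Tnfsf11* and *Dlx5* were chosen after their values were seen. In the other direction, *Bmp2*, a ligand that induces bone, averaged 1.45 ± 0.270 TPM in NT muscles and 1.11 ± 0.0895 TPM in *Uba1* muscles (log2 difference -0.21, adjusted p = 0.284 from limma). Its groups did not overlap, and it was lower in each of the 4 pairs, whereas 1.01% of genes tested were lower without overlap. *Ifitm5*, a gene of mineralizing osteoblasts, was lower in the *Uba1* muscle of each of the 4 pairs (0.889 ± 0.278 and 0.499 ± 0.175 TPM; SD, n = 4 each; groups overlapping). Both were likewise chosen after their values were seen.

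Of 11 listed genes that set the balance of phosphate and pyrophosphate and are no members, 6 were tested. Of these, 4 had a log2 difference above 0, against 81.8% of all genes tested, and the median was 0.042. With median-ratio scaling 2 did, against 5842 of all 11530 genes, and the median was -0.050. *Phospho1*, a phosphatase of matrix vesicles that muscle also expresses, was at 147 ± 8.03 TPM with NT siRNAs and 154 ± 3.81 TPM with *Uba1* siRNAs, and *Ank*, a pyrophosphate exporter, at 110 ± 10.4 and 108 ± 12.4 TPM (SD, n = 4 each). *Slc20a1*, a phosphate importer, was the exception, at 11.2, 19.0, 12.7 and 20.0 TPM in NT replicates 1 to 4 and at 9.45, 8.16, 10.2 and 10.2 TPM in *Uba1* replicates 1 to 4. Every *Uba1* muscle was below every NT muscle (log2 difference -0.63, standard error 0.176, adjusted p = 0.165 from limma; exact permutation test, two-sided, p = 0.0286), whereas 1.01% of genes tested were lower without overlap. Its paralog *Slc20a2* was at 22.5 ± 1.45 and 24.8 ± 3.11 TPM. *Fam20c*, the kinase that phosphorylates secreted matrix proteins, was at 5.49 ± 1.09 and 6.52 ± 1.88 TPM, and *Enpp1*, which makes pyrophosphate, at 1.02 ± 0.218 and 1.05 ± 0.204 TPM (SD, n = 4 each). *Smpd3*, *Nt5e*, *Ahsg*, *Fgf23* and *Abcc6* stayed under the filter.

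Of the Gla proteins other than osteocalcin, *Mgp*, matrix Gla protein, inhibits calcification of soft tissues. It was at 125, 62.9, 97.4 and 69.7 TPM in NT replicates 1 to 4 and at 124, 93.6, 118 and 120 TPM in *Uba1* replicates 1 to 4, with overlapping groups (log2 difference 0.40, adjusted p = 0.318 from limma). NT replicate 1 was again the highest NT muscle. *Gas6*, a Gla ligand of TAM receptors, was at 67.4 ± 4.36 and 78.0 ± 5.96 TPM, and the enzymes of the vitamin K cycle at 6.14 ± 0.947 and 6.78 ± 1.17 TPM for *Ggcx* and 16.1 ± 2.36 and 18.8 ± 4.39 TPM for *Vkorc1* (SD, n = 4 each). All 4 had a log2 difference above 0, as had 81.8% of all genes tested, with a median of 0.20 (0.083 with median-ratio scaling), and none passed the adjusted p.

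Of the receptors that bind osteopontin and bone sialoprotein, 4 of 8 genes tested had a log2 difference above 0, against 81.8% of all genes tested. With median-ratio scaling 3 did, against 5842 of all 11530 genes. *Itga5*, an integrin subunit that binds fibronectin and osteopontin, was at 14.3, 16.4, 15.8 and 14.6 TPM in NT replicates 1 to 4 and at 9.67, 7.40, 11.02 and 8.50 TPM in *Uba1* replicates 1 to 4 (log2 difference -0.69, standard error 0.110, adjusted p = 0.0644 from limma and 0.0478 with the replicate block). The groups did not overlap. *Itgb5*, a partner of integrin αv, went the other way, from 49.2 ± 2.43 to 60.4 ± 7.20 TPM without overlap (log2 difference 0.29, adjusted p = 0.182 from limma). *Itgb1* was at 115 ± 10.3 and 123 ± 20.2 TPM, and *Cd44*, another osteopontin receptor, at 5.49 ± 0.865 and 4.43 ± 1.77 TPM, with overlapping groups (SD, n = 4 each).

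**Figure D4:**
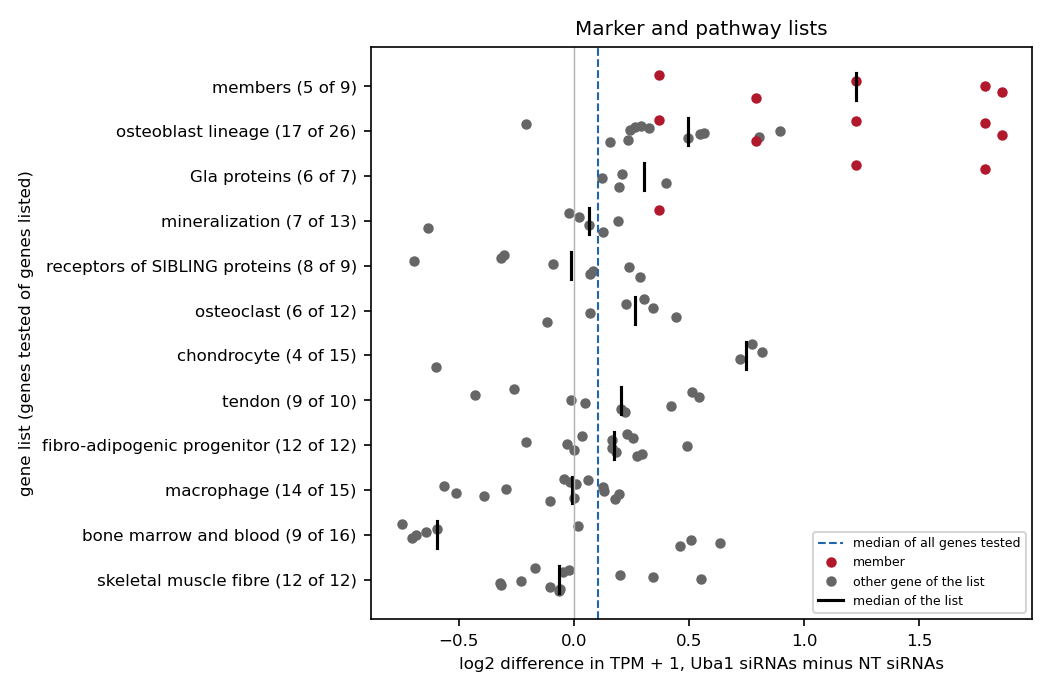
Log2 difference in TPM + 1 between *Uba1* and NT siRNAs (x axis) for each gene tested in 12 marker and pathway lists (rows, with genes tested of genes listed), where red points are members, grey points other genes, black bars list medians and the dashed line the median of all genes tested. The members tested, all but *Alpl* picked for their rise, lie from 0.37 to 1.86, other osteoblast genes mostly between 0 and 0.9, and mineralization genes around 0 apart from *Slc20a1*. *Sp7*, *Runx2*, *Dmp1* and *Phex* stayed under the filter and are not plotted.

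Markers of the cells that accompany bone gave a mixed picture. Of the osteocyte markers, *Sost* and *Mepe* were at 0 TPM in all 8 muscles, and *Pdpn*, which other cells share, was at 8.34 ± 1.81 TPM with NT siRNAs and 8.86 ± 2.93 TPM with *Uba1* siRNAs (SD, n = 4 each). Of 12 osteoclast genes, 6 were tested and 5 of these had a log2 difference above 0, near the 81.8% of all genes tested (median 0.26, none past the adjusted p). *Ctsk*, cathepsin K, was at 21.5 ± 7.19 and 27.2 ± 6.53 TPM, and *Mmp9* at 0.929 ± 0.263 and 1.65 ± 0.626 TPM, higher in 4 of 4 pairs with overlapping groups. Of 15 chondrocyte genes, 4 were tested: *Col11a1* (log2 difference 0.82), *Chad* (0.77) and *Comp* (0.72) were the higher ones and *Sox9*, the master factor of cartilage, the lower one (-0.60), and none passed the adjusted p.

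Summed chondrocyte markers moved partly with the members. The 15 genes summed to 29.4, 8.69, 16.8 and 13.1 TPM in NT replicates 1 to 4 and to 19.3, 27.2, 19.1 and 30.0 TPM in *Uba1* replicates 1 to 4, whereas the 9 members summed to 29.6, 17.9, 18.5 and 18.2 TPM and to 23.8, 80.3, 37.0 and 65.8 TPM, respectively. In both sums, NT replicate 1 was the highest NT muscle, *Uba1* replicates 2 and 4 were the highest *Uba1* muscles, and pair 1 was lower with *Uba1* siRNAs. Of the defining cartilage genes, *Acan* was at 0.0259 to 0.611 TPM with NT siRNAs and 0.361 to 0.722 TPM with *Uba1* siRNAs, *Col2a1* was at 0.308 TPM or less, and *Matn1* was at 0 in every muscle. The part of these markers in the results of the members was not tested.

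The 16 blood and marrow markers, mostly hemoglobin transcripts by level, summed to 2945, 6323, 7028 and 1954 TPM in NT replicates 1 to 4 and to 3709, 2092, 2969 and 1877 TPM in *Uba1* replicates 1 to 4, the lowest *Uba1* sums being those of replicates 2 and 4. Of the 9 tested, 4 had a log2 difference above 0, the median was -0.59, and none passed the adjusted p. The neutrophil genes *S100a8* (log2 difference 0.63), *Retnlg* (0.51) and *S100a9* (0.46) were above 0 and, among *Uba1* muscles, lowest in replicate 1. The marrow granule genes *Mpo*, *Elane*, *Ngp* and *Ltf* were at 0.113 TPM or less in every muscle and *Camp* was at 0. Of 9 tendon genes tested, 6 had a log2 difference above 0, against 81.8% of all genes tested, with a median of 0.21 (0.085 with median-ratio scaling) and a range of 4 to 8 genes when 1 muscle was left out, led by *Fmod* (41.9 ± 18.9 and 57.8 ± 6.68 TPM). Fibro-adipogenic progenitors, the resident mesenchymal cells of muscle, had 10 of 12 markers above 0, near the 81.8% of all genes tested, with a median of 0.17. With median-ratio scaling 8 were above 0, against 5842 of all 11530 genes. *Lum* was the farthest apart of these markers, at 56.2 ± 13.2 and 78.3 ± 9.31 TPM (SD, n = 4 each). Of 14 macrophage markers tested, 7 were above 0, but this count was 4 with median-ratio or quantile scaling, and it ranged from 1 (without *Uba1* replicate 3) to 11 (without *Uba1* replicate 2) when 1 muscle was left out. Of 12 muscle fibre markers, 3 were above 0 (median -0.064), 7 with quantile normalization and 5 without *Uba1* replicate 2. None of these lists had a gene past the adjusted p.

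The composition of the libraries also differed in the muscles with the most *Ibsp*. The mitochondrial genome took 45.7%, 43.9%, 42.1% and 43.2% of the TPM in NT replicates 1 to 4 and 40.2%, 50.3%, 39.9% and 46.5% in *Uba1* replicates 1 to 4, so the share was highest in *Uba1* replicates 2 and 4. In the same 2 muscles the muscle fibre markers were lowest, at 132794 and 154011 TPM. With the TPM rescaled to exclude mitochondrial genes, the log2 difference was 2.06 for *Ibsp*, 0.87 for *Sp7* and 0.48 for *Runx2*, and the exact permutation p of *Sp7* and of *Runx2* stayed at 0.0286 (two-sided).

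**Figure D5:**
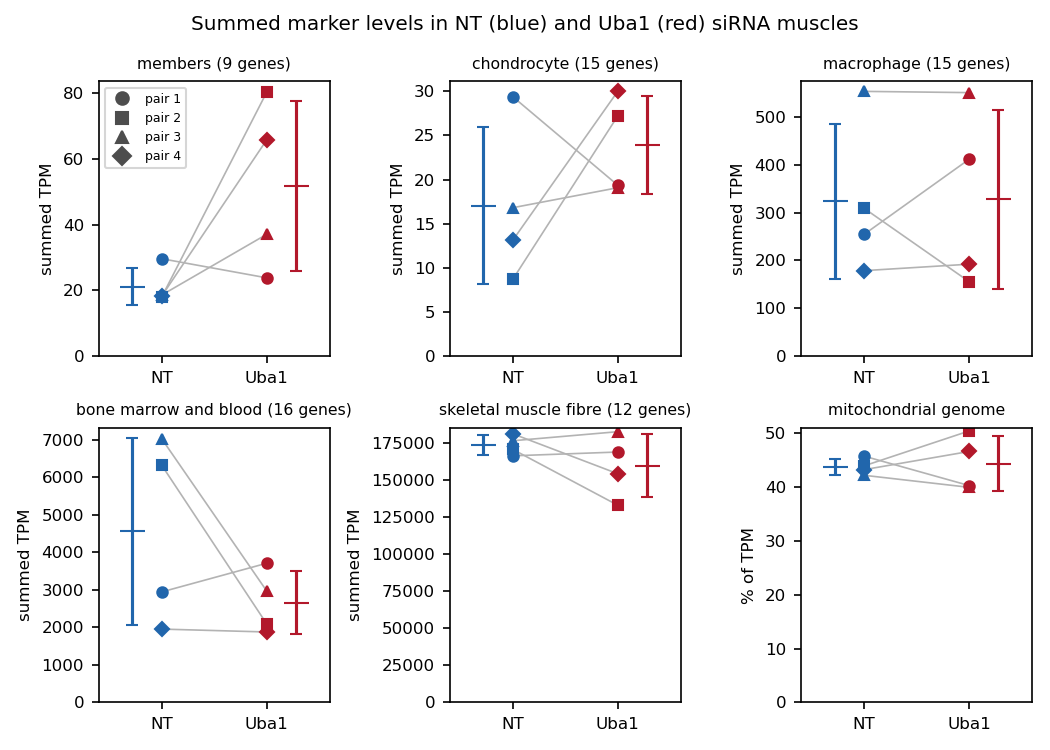
Summed TPM (y axes, linear, from 0) of the members and of 4 marker lists, and the share of TPM from the mitochondrial genome, in muscles with NT siRNAs (blue) and *Uba1* siRNAs (red), with lines joining the legs of a mouse and bars giving mean and SD (n = 4). The members and the chondrocyte markers are highest in *Uba1* replicates 2 and 4 among the *Uba1* muscles, whereas macrophage and blood markers are not.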

How the data were processed

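Total mRNA of 8 TA muscles (4 per group) was measured by RNA-seq. The authors used CLC Genomics Workbench for alignment to GRCm39, and the deposited values are TPM, which sum to 1000000 in each muscle. The annotation used is not given in the sources used here. Gene positions, coding sequences and exon lengths came from GENCODE M39, in which 37033 of 41709 symbols were found, and approximate reads were computed as TPM times exon length over the size of 1 read. Samples were grouped by their descriptions.

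The log2(TPM + 1) values of the 11530 genes that reached 1 TPM in 4 or more muscles were tested with limma 3.58.1 in R 4.3.3 (lmFit, eBayes with a trend, no block), with Benjamini-Hochberg adjustment over all genes. A log2 difference on this scale understates changes of low genes. The 5 members not picked for their rise were also compared with exact permutation tests (two-sided, 70 divisions, smallest p 0.0286). As checks of the calculation, limma was run on simulated data and the permutation test on small made-up groups. The number of muscles limits the precision, and p-values measure the spread between these mice. Same-numbered muscles come from the same mouse per the labels and the paper; their deviations from the group means correlated at r = -0.00037, 0.20, 0.58 and 0.54 in pairs 1 to 4.

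Named were all members, the genes of the matrix glycoprotein, Gla and mineralization lists, up to 3 genes by level and 3 by difference of each other list, and the 5 genes most like *Ibsp*, of which 1 is not reported here. *Pth1r*, *Tnfsf11*, *Dlx5*, *Bmp2*, *Ifitm5* and the markers *S100a8*, *S100a9*, *Retnlg*, *Sost*, *Acan*, *Col2a1*, *Matn1*, *Mpo*, *Elane*, *Ngp*, *Ltf* and *Camp* fall outside this rule and were named after their values were seen. The members and lists were chosen with earlier results of these data known. Alternatives were a pseudocount of 0.1, no filter, a filter at a mean of 5 TPM, median-ratio and quantile scaling, TPM without mitochondrial genes, the replicate block, the Kruskal-Wallis test and leaving out each muscle.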

Additional observations from a re-analysis of the deposited data

Results flagged for a closer look

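In 20 groups of 4 muscles (the 9 members and *Uba1* in each group), 2 held a muscle far from the other 3 by Dixon's criterion, and chance flags about 1 group in 20. *Bglap* was at 1.13 TPM in NT replicate 1, against 0.313 to 0.446 TPM in the other NT muscles, and this muscle was also the highest NT muscle for *Bglap2*, *Alpl*, *Sp7*, *Runx2* and *Dmp1*. *Spp1* was at 23.6 TPM in *Uba1* replicate 2, against 7.69 to 9.14 TPM in the other *Uba1* muscles.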

How the results depend on the processing

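The group differences of *Ibsp*, *Bglap*, *Bglap2*, *Spp1*, *Alpl*, *Sp7*, *Runx2* and *Dmp1* kept their direction under every alternative run. *Sp7* missed an adjusted p of 0.05 with no filter (log2 difference 0.60), as did *Runx2* (0.34). *Runx2* also missed an exact permutation p of 0.05 with median-ratio scaling (0.30) and quantile normalization (0.28). *Dmp1* (0.11) passed an unadjusted p of 0.05 with the replicate block and with the Kruskal-Wallis test, but not with the block joined to median-ratio scaling (0.097). With that joint setting *Runx2* passed an unadjusted p of 0.05 (0.30). At an unadjusted p of 0.05, the calls of *Alpl*, *Sp7* and *Phex* were the same with and without the replicate block. With the block and no filter, the adjusted p of *Sp7* was 0.210 (limma). Leaving out 1 muscle at a time, the log2 difference ranged from 1.45 to 2.46 for *Ibsp*, 0.99 to 1.59 for *Bglap*, 1.41 to 2.27 for *Bglap2*, 0.44 to 0.94 for *Spp1*, 0.22 to 0.53 for *Alpl*, 0.55 to 0.65 for *Sp7*, 0.25 to 0.40 for *Runx2*, 0.089 to 0.15 for *Dmp1* and -0.068 to 0.023 for *Phex*, which changed sign without NT replicate 2. With a pseudocount of 0.1, the log2 difference of *Bglap* was 2.07, and that of *Bglap2* (2.50) exceeded that of *Ibsp* (2.31). Among all genes, 0 were higher and 3 lower at an adjusted p of 0.05 by limma. Higher and lower genes numbered 22 and 35 with the replicate block, 7 and 69 when the block was joined to median-ratio scaling, 1 and 22 with median-ratio scaling, 1 and 27 with quantile normalization, and 2 and 11 without mitochondrial genes. No filter gave 1 higher gene, a filter at a mean of 5 TPM gave 11 lower and the Kruskal-Wallis test 0 lower, and leaving out 1 muscle gave 0 to 4 higher and 2 to 35 lower. At an unadjusted p of 0.05, where 1844 were higher and 228 lower, the counts were 511 and 712 with median-ratio scaling, 803 and 1010 when the block was joined to it, 513 and 595 with quantile normalization, 1113 and 149 at a mean of 5 TPM, and 374 lower with no filter. Leaving out 1 muscle gave 1158 to 2044 higher and 175 to 282 lower. The causes of these changes were not tested. Low reads limit *Bglap*, *Bglap2*, *Dmp1* and *Sp7* in the NT muscles, and also limit *Tnfsf11* and *Dlx5*.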
